A study of Mus musculus with 4 samples.

Results

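The 60 genes described here code for the machinery of mitosis and its control: cyclins and mitotic kinases, spindle checkpoint and kinetochore proteins, kinesins, chromosome and spindle proteins, and the factors that start anaphase and cytokinesis. They were taken by gene symbol from a list of G2/M, spindle, kinetochore, checkpoint and cytokinesis genes. The list is by function and its rule has no threshold on a measured value, but it was drawn up with earlier results of these data known. All 60 were found among the 48178 genes of the table, and all 60 were among the 15204 genes tested, with at least 10 normalized counts in every library. In FGF13Aoe neurospheres 31 of the 60 (51.7%) fell, 0 rose and 29 did not pass the test, while 19.1% of all genes tested fell and 16.2% rose. The call was an adjusted p under 0.05 from limma on log2(normalized count + 1), with Benjamini-Hochberg adjustment over all genes tested. The 31 calls depended on the libraries: most were lost when either control library was left out. Most lower calls among all genes tested were lost in those fits too. Fewer of the 60 were called when FGF13Aoe replicate 1 was dropped, and more when FGF13Aoe replicate 2 was. The median log2 change of the 60 ranged from -1.09 to -0.55 over the fits that each dropped a library.

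FGF13Aoe samples (2 libraries) were hippocampal neurospheres of P0 C57BL/6 mice with the genotype hGFAPCre+, ROSA26FGF13A LSL/+, and control samples (2 libraries) were the same kind of culture with the genotype hGFAPCre+, ROSA26FGF13A +/+. Both groups therefore carried hGFAPCre, a Cre recombinase driven by the human GFAP promoter in neural progenitors and astrocytes, and the groups differed in the LSL allele, a transgene at the Rosa26 locus silenced until Cre removes a stop sequence. Neurospheres are floating clusters grown from neural stem and progenitor cells. EGF and FGF-2 were each supplied at 20 ng/ml to both groups, and spheres were harvested on day 7 of culture. Cells of a mouse went into 2 wells, and whether the replicates of a group are separate pups is not stated in the labels. The p-values thus cover the spread among these 4 samples alone, and how much of that spread is technical is unknown here.

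Entry into mitosis is driven by CDK1 bound to cyclin A or cyclin B, after CDC25 phosphatases remove the phosphates that hold the kinase inactive. Condensin and topoisomerase II compact and untangle the chromosomes, Aurora and Polo kinases build the spindle, and kinetochores tie each centromere to microtubules. The spindle checkpoint holds the anaphase-promoting complex inactive until all kinetochores are attached. Separase then cuts cohesin, and the central spindle directs cytokinesis. Much of this machinery is transcribed as a block in G2, through the MuvB complex with B-MYB and FOXM1, and in dividing neural progenitors these transcripts mark cells in cycle. In bulk RNA, fewer dividing cells and less of each RNA per cell cannot be told apart.

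Libraries held 9724413 and 11389767 reads in FGF13Aoe and 11481591 and 14092685 reads in control. Fgf13, the gene whose A isoform the transgene carries, stood at 5410 and 4447 normalized counts in FGF13Aoe and at 772 and 769 in control, a log2 change of 2.67 ± 0.14 (SE; adjusted p = 0.00111, limma). Genes that mark the sex of the pups differed too: the Y-linked gene Ddx3y was at 0 and 0 normalized counts in FGF13Aoe, against 4.95 and 146 in control, and Xist, the RNA of X inactivation, at 30159 and 31301 in FGF13Aoe, against 18658 and 12206 in control. The control libraries thus also differed from each other in both genes. Neural progenitor transcripts were abundant in all 4 libraries, with Vim, Fabp7 and Slc1a3 at the highest means of their list, and the summed level of the 10 progenitor markers was 86522 and 93524 normalized counts in FGF13Aoe, against 88655 and 92186 in control. Most of that sum came from Vim, Fabp7 and Slc1a3, which did not pass. Of the 10 markers 6 rose, with log2 changes from 0.52 for Sox1 to 3.57 for Hes5, and 1 fell. The marker that fell was Nes, at 2310 and 4006 normalized counts in FGF13Aoe, against 11341 and 13805 in control. Markers of other cells moved with the groups: 8 of 10 neuron markers fell (summed level 11924 and 14818 in FGF13Aoe, against 42938 and 33582 in control). Of the astrocyte markers 5 of 8 rose (158843 and 183757 in FGF13Aoe, against 57383 and 38177 in control). In the oligodendrocyte lineage 5 of 10 markers rose (52134 and 57870 in FGF13Aoe, against 23919 and 29533 in control). Of these 10, 0 fell, but in 3 both FGF13Aoe libraries lay below both controls (37.5% of all genes tested). They included Olig1, at 5731 and 10088 normalized counts in FGF13Aoe, against 13273 and 14481 in control. Microglial markers summed to 45.9 and 54.7 in FGF13Aoe, against 241 and 128 in control, with Tmem119 at 0 in both FGF13Aoe libraries. Of 5 fibroblast and pericyte markers tested 3 fell, with sums of 283 and 214 in FGF13Aoe, against 745 and 580.04 in control, and of 4 ependymal markers 1 fell, with sums of 619 and 481, against 630.03 and 687. The part of sex and of cell make-up in the mitotic gene differences was not tested.

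Across the 60 genes the median log2 change was -0.82, an expression 0.565 times that of control, with quartiles of -1.04 and -0.49, while the median over all genes tested was -0.01. The change was below 0 in 56 genes and above 0 in 4. Of the 60, 15 were called and at least 2-fold lower, as were 11.6% of all genes tested. Counted among lower calls alone, these were 15 of 31, beside 1765 of 2906 over all genes tested. In 48 of the 60 (80%) both FGF13Aoe libraries lay below both control libraries, beside 37.5% of all genes tested, and in 11 the groups overlapped. Only Cdc25b lay above both controls in both FGF13Aoe libraries, which held for 36.2% of all genes. At an unadjusted p under 0.05, 42 of the 60 were lower and 0 higher, beside 25.4% lower and 22.7% higher among all genes. Summed over the 60, the normalized counts were 19427 and 26469 in FGF13Aoe and 31673 and 42627 in control, or 0.165% and 0.230% of the library in FGF13Aoe and 0.278% and 0.372% in control.

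**Figure D1:**
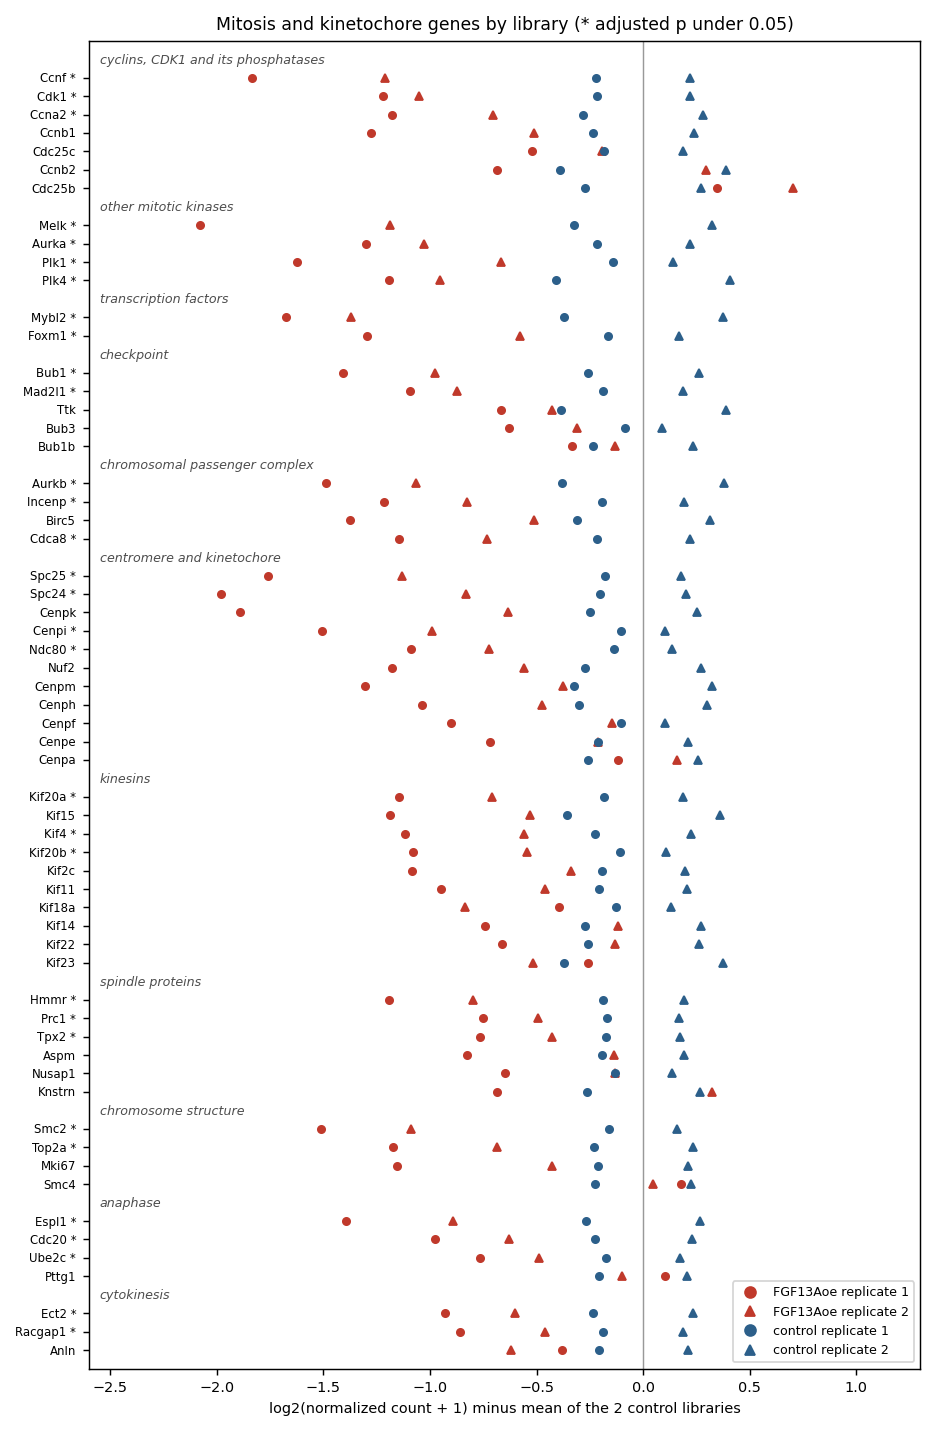
Level of each of the 60 genes in each library, as log2(normalized count + 1) minus the mean of the 2 control libraries (x axis), with genes grouped by role from top to bottom and asterisks for an adjusted p under 0.05. FGF13Aoe replicate 1 lies farthest left for most genes, and in 48 genes both FGF13Aoe points lie left of both control points.

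**Figure D2:**
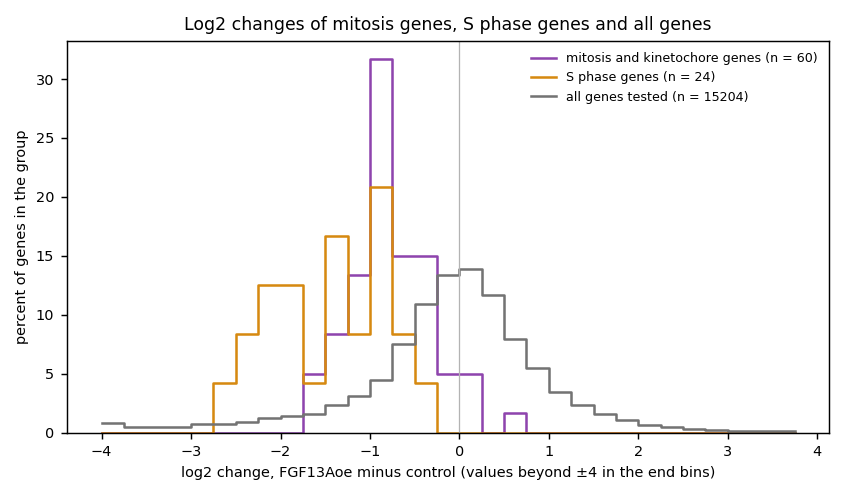
Distribution of log2 changes, FGF13Aoe minus control (x axis), as the percent of genes in each bin (y axis), for the 60 mitosis and kinetochore genes, 24 S phase genes and all 15204 genes tested. The mitotic genes have their median at -0.82 and the S phase genes at -1.39, while all genes have theirs at -0.01.

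Promoters are shown for 6 of the genes that fell, because mitotic genes are known to share 2 short elements just before their start: the cell cycle genes homology region, whose core is TTTGAA and which MuvB binds, and CCAAT boxes, bound by NF-Y. RefSeq windows of GRCm38.p6, from 250 bases before to 50 after the annotated start, were matched by symbol for 51 of the 60 genes (56 windows). No window was matched for Aurkb, Ccna2, Cdc25c, Foxm1, Incenp, Kif20a, Smc4, Spc24 or Tpx2. TTTGAA, read on either strand, stood in 36 of the 56 windows (64.3%), against 17.9% of the 32851 windows of all genes. CCAAT, likewise on either strand, stood in 41 windows (73.2%), against 37.4% of all windows, and both stood in 31 (55.4%), against 6.95%. The 2 motifs can share an end base, and base composition was not matched, so these shares are a description without a test.
The 6 sequences below run 5′ to 3′ over the 250 bases before the start on the strand of the gene, as RefSeq GRCm38.p6 gives them, and capitals mark TTTGAA and CCAAT as read on either strand.
Smc2 (chr4:52438971-52439220, plus strand): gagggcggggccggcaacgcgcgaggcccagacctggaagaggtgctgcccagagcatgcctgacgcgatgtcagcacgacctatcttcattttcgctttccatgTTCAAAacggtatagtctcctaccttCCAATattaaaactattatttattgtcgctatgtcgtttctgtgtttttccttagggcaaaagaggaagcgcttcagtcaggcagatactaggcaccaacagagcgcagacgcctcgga
Cdk1 (chr10:69352913-69353162, minus strand): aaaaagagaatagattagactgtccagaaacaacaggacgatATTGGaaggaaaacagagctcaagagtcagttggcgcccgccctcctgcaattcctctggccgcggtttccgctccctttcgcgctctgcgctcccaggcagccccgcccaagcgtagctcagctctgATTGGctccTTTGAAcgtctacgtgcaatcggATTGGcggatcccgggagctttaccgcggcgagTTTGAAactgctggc
Ccnf (chr17:24251410-24251659, minus strand): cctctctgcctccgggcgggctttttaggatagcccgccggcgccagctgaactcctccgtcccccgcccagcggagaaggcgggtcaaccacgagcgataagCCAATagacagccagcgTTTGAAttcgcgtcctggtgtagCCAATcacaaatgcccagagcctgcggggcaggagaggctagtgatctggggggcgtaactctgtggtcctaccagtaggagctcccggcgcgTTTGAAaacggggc
Spc25 (chr2:69206214-69206463, minus strand): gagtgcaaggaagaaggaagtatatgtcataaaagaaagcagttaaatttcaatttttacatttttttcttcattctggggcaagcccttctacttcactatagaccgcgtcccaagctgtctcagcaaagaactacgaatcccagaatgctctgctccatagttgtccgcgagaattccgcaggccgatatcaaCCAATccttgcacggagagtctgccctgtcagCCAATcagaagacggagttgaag
Aurka (chr2:172370571-172370820, minus strand): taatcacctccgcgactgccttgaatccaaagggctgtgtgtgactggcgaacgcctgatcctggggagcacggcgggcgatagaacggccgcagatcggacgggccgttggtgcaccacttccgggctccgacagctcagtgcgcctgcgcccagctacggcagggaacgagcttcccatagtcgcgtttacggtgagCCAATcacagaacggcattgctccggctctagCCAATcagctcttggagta
Hmmr (chr11:40733438-40733687, minus strand): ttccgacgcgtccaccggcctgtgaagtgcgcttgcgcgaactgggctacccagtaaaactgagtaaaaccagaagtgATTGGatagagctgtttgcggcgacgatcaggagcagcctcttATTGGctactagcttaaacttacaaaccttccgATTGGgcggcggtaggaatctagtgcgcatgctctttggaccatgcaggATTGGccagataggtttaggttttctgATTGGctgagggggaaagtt

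These 6 were the genes with both motifs that had the smallest p, outside chromosome 18. The Cdk1 window had TTTGAA at positions -71 and -15, counted to its first base from the start, and CCAAT read on the other strand at -208, -80 and -48. The Ccnf window had TTTGAA at -130 and -14 and CCAAT at -147 and -107. In Smc2 TTTGAA read on the other strand stood at -145 and CCAAT at -119. A further TTTGAA of Smc2, on the other strand too, stood at 27, after the start and outside the printed stretch. In Spc25, Aurka and Hmmr the TTTGAA run lay just after the start, outside the printed stretch, and CCAAT boxes lay before it. Among the genes that fell, 20 of 26 windows (76.9%) held TTTGAA and 18 (69.2%) held both motifs. Among the genes that did not pass, 16 of 30 windows (53.3%) held TTTGAA and 13 (43.3%) held both. The 2 sets were not tested against each other, and each held windows with neither motif, such as Melk, Mybl2, Plk4 and Mad2l1, which fell, and Pttg1, Knstrn and Nuf2, which did not pass.

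Of the 7 cyclins, CDK1 and CDC25 phosphatases, 3 fell, with a median log2 change of -0.90. The counts by role, here and below, stand beside the 19.1% of all genes tested that fell. Both FGF13Aoe libraries lay below both controls in 37.5% of all genes tested. Cdk1 (ENSMUSG00000019942, GRCm38 chr10:69335146-69352938, minus strand), the kinase that drives mitotic entry, stood at 399 and 447 normalized counts in FGF13Aoe, against 798 and 1082 in control. The groups did not overlap, and the difference was 2.20-fold lower in FGF13Aoe (log2 change -1.14 ± 0.18, SE, n = 2 each, adjusted p = 0.00793, limma). Ccnf, which codes for cyclin F, an F-box protein that targets substrates for degradation, had 132 and 203 normalized counts in FGF13Aoe, against 405 and 550 in control. It was lower in both FGF13Aoe libraries than in either control (log2 change -1.52 ± 0.27, adjusted p = 0.0104). Ccna2, for cyclin A2, had 327 and 454 normalized counts in FGF13Aoe and 610 and 901 in control (log2 change -0.94 ± 0.25, adjusted p = 0.0331), and 12.5% of its exonic bases are shared with Exosc9 on the opposite strand. Whether the counting was strand-specific is unknown here.

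The B cyclins, which bind CDK1 directly, did not pass. Ccnb1 had 371 and 631 normalized counts in FGF13Aoe and 764 and 1062 in control (log2 change -0.90 ± 0.29, adjusted p = 0.0588), with no overlap of the groups. Ccnb2 had 178 and 351 normalized counts in FGF13Aoe and 218 and 375 in control, so its groups overlapped (log2 change -0.19 ± 0.40, adjusted p = 0.726). Both have annotated pseudogenes whose reads may be shared, so their values are uncertain. Cdc25b, an activating phosphatase of CDK1 at the start of mitosis, was the member with both FGF13Aoe values above both controls, at 395 and 506 normalized counts in FGF13Aoe and 257 and 375 in control (log2 change 0.53 ± 0.23, adjusted p = 0.129). Its relative Cdc25c had 121 and 152 normalized counts in FGF13Aoe and 153 and 198 in control (log2 change -0.36 ± 0.23, adjusted p = 0.273), and 12.7% of its exonic bases overlap Gm3550. The libraries of Cdc25c barely separated, with FGF13Aoe replicate 2 next to control replicate 1.

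All 4 other mitotic kinases on the list fell, with a median log2 change of -1.15. Aurka, for Aurora A, a kinase of centrosomes and spindle poles, had 147 and 178 normalized counts in FGF13Aoe, against 313 and 424 in control (log2 change -1.16 ± 0.22, adjusted p = 0.0119). Melk, for a kinase of dividing progenitor cells, had 58.0 and 108 normalized counts in FGF13Aoe, against 198 and 311 in control (log2 change -1.63 ± 0.37, adjusted p = 0.0223). In both genes the 2 FGF13Aoe libraries were the lowest of the 4, and Melk had the most negative log2 change of the 60. Plk4, the kinase that starts centriole duplication, had a log2 change of -1.07 ± 0.31 (adjusted p = 0.0411), and Plk1, the Polo kinase of mitotic entry and exit, of -1.15 ± 0.33 (adjusted p = 0.0418).

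Both transcription factors fell. Mybl2, for B-MYB, which joins MuvB on mitotic promoters, had 58.0 and 71.9 normalized counts in FGF13Aoe, against 145 and 243 in control (log2 change -1.52 ± 0.31, adjusted p = 0.0162). Foxm1, for the forkhead factor that follows B-MYB on these promoters, had 267 and 439 normalized counts in FGF13Aoe, against 585 and 737 in control (log2 change -0.94 ± 0.26, adjusted p = 0.0399). The 4 libraries kept 1 order in both genes, with FGF13Aoe replicate 1 the lowest and control replicate 2 the highest.

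Spindle checkpoint genes divided: 2 of 5 fell and the median log2 change was -0.55. Mad2l1, for MAD2, which binds and holds CDC20, had 169 and 197 normalized counts in FGF13Aoe, against 318 and 413 in control (log2 change -0.98 ± 0.20, adjusted p = 0.0152). Bub1, for a kinetochore kinase of the checkpoint, had 119.6 and 162 normalized counts in FGF13Aoe, against 266 and 383 in control (log2 change -1.19 ± 0.26, adjusted p = 0.0187). Neither gene had overlapping groups. Bub3, the partner of BUB1 and BUBR1, had 739 and 923 normalized counts in FGF13Aoe and 1077 and 1216 in control (log2 change -0.47 ± 0.15, adjusted p = 0.061). Ttk, for the kinase MPS1 that starts checkpoint signalling, had 120 and 142 in FGF13Aoe and 146 and 250 in control (log2 change -0.55 ± 0.30, adjusted p = 0.199). Both were below control in both libraries without passing the test, whereas Bub1b, for BUBR1, overlapped, at 511 and 589 normalized counts in FGF13Aoe and 548 and 760 in control (log2 change -0.23 ± 0.19, adjusted p = 0.375).

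The chromosomal passenger complex, which corrects faulty attachments at the centromere and then moves to the central spindle, has 4 subunits, of which 3 fell. Incenp, the scaffold subunit, had 343 and 449 normalized counts in FGF13Aoe, against 699 and 912 in control (log2 change -1.02 ± 0.20, adjusted p = 0.0141). Aurkb, its kinase, had 121 and 162 normalized counts in FGF13Aoe, against 262 and 443 in control (log2 change -1.28 ± 0.30, adjusted p = 0.0243). Cdca8, for borealin, had a log2 change of -0.94 ± 0.22 (adjusted p = 0.0244). Birc5, for survivin, had 162 and 295 normalized counts in FGF13Aoe and 339 and 523 in control, so it was lower in both libraries but did not pass (log2 change -0.94 ± 0.34, adjusted p = 0.0805). Its FGF13Aoe libraries lay farther apart than those of Cdca8, which had 231 and 307 normalized counts in FGF13Aoe and 439 and 595 in control, and whose log2 change was the same to 2 decimals.

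Of 11 centromere and kinetochore genes 4 fell, and the median log2 change was -0.87. In 10 of them both FGF13Aoe libraries lay below both controls, beside 37.5% of all genes tested. The NDC80 complex, which grips the microtubule end, has 4 subunits, all on the list. Spc25 had 105 and 163 normalized counts in FGF13Aoe, against 316 and 405 in control (log2 change -1.44 ± 0.27, adjusted p = 0.0117), and its promoter is among those printed. Ndc80 had 108 and 139 in FGF13Aoe, against 209 and 252 in control (log2 change -0.91 ± 0.22, adjusted p = 0.0268), and Spc24 had 35.0 and 78.9, against 123 and 163 (log2 change -1.41 ± 0.42, adjusted p = 0.0482). Nuf2 did not pass, at 192 and 296 normalized counts in FGF13Aoe and 361 and 527 in control (log2 change -0.87 ± 0.28, adjusted p = 0.0588). The groups did not overlap in any of the 4 subunits.

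Among the genes of the inner kinetochore network that sits on centromeric chromatin, Cenpi fell. It had 71.3 and 102 normalized counts in FGF13Aoe, against 190 and 220 in control (log2 change -1.25 ± 0.25, adjusted p = 0.0153). Cenpk, Cenph and Cenpm, of the same network, had the log2 changes -1.26 ± 0.48, -0.76 ± 0.34 and -0.84 ± 0.40 and the adjusted p-values 0.0903, 0.129 and 0.147. These 3 are among the genes with few reads, from 19.3 normalized counts for Cenpk in FGF13Aoe replicate 1 to 167 for Cenpm in control replicate 2, and none passed, although FGF13Aoe was below control in every library of each. Cenpf and Cenpe, large proteins of the outer kinetochore, had log2 changes of -0.53 ± 0.26 (adjusted p = 0.157) and -0.47 ± 0.23 (adjusted p = 0.158). Cenpa, the histone variant that marks the centromere, had 485 and 586 normalized counts in FGF13Aoe and 439 and 629 in control (log2 change 0.02 ± 0.21, adjusted p = 0.947). Its FGF13Aoe values lay between those of the control libraries, unlike those of the other 10 genes of the group.

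Kinesins, the motors that slide and depolymerize spindle microtubules, had a median log2 change of -0.71, and 3 of 10 fell. Of all genes tested 19.1% fell. Without the intensity trend 0 of the 10 were called lower (14.8% of all genes). Kif20a, for a central spindle motor, had 193 and 262 normalized counts in FGF13Aoe, against 377 and 488 in control (log2 change -0.93 ± 0.22, adjusted p = 0.0247), with 29.3% of its exonic bases shared with Cdc23 on the opposite strand. Kif20b, its relative, had 122 and 177 in FGF13Aoe, against 240 and 279 in control (log2 change -0.81 ± 0.24, adjusted p = 0.0454). Kif4, a chromosome arm motor, had a log2 change of -0.84 ± 0.25 (adjusted p = 0.0489); 15.1% of its exonic bases overlap Pdzd11 on the opposite strand, and it has an annotated pseudogene. These 3 genes had no overlap between groups.

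Of the 7 kinesins that did not pass, 4 had both FGF13Aoe libraries below both controls, beside 37.5% of all genes tested. Kif11, the motor that pushes spindle poles apart, had 529 and 744 normalized counts in FGF13Aoe and 887 and 1181 in control (log2 change -0.70 ± 0.22, adjusted p = 0.0535). Kif18a, which limits chromosome oscillation, had a log2 change of -0.62 ± 0.22 (adjusted p = 0.0791), Kif15, a spindle motor that works beside Kif11, of -0.86 ± 0.32 (adjusted p = 0.0865) and Kif2c, a microtubule depolymerase of the centromere, of -0.71 ± 0.29 (adjusted p = 0.101). The other 3 overlapped between groups. Kif23, the motor subunit of centralspindlin, had 367 and 307 normalized counts in FGF13Aoe and 339 and 569 in control (log2 change -0.39 ± 0.27, adjusted p = 0.296), so the highest FGF13Aoe library exceeded the lowest control. Kif22, for a chromosome arm motor with an annotated pseudogene, and Kif14, for a motor of cytokinesis, had log2 changes of -0.40 ± 0.26 (adjusted p = 0.263) and -0.43 ± 0.30 (adjusted p = 0.299).

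Of 6 other spindle proteins 3 fell, with a median log2 change of -0.54. Hmmr, for a spindle pole protein first known as a hyaluronan receptor, had 233 and 307 normalized counts in FGF13Aoe, against 469 and 610 in control (2.00-fold lower in FGF13Aoe, adjusted p = 0.0172). Prc1, for the bundler of central spindle microtubules, had 494 and 591 in FGF13Aoe, against 741 and 936 in control (log2 change -0.62 ± 0.17, adjusted p = 0.0369), with 11.1% of its exonic bases shared with Rccd1 on the opposite strand. Tpx2, the activator of Aurora A, had a log2 change of -0.60 ± 0.18 (adjusted p = 0.0483). In contrast to these 3, Nusap1, Aspm and Knstrn overlapped between groups. Nusap1, for a microtubule bundling protein, and Aspm, for a spindle pole protein required for normal brain size, had log2 changes of -0.39 ± 0.21 (adjusted p = 0.194) and -0.48 ± 0.26 (adjusted p = 0.196). Knstrn, for an astrin partner at the kinetochore, had 342 and 689 normalized counts in FGF13Aoe and 458 and 661 in control (log2 change -0.18 ± 0.36, adjusted p = 0.718), and its FGF13Aoe libraries were at both ends of the 4.

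Of 4 genes of chromosome structure 2 fell, and Smc2 had the smallest adjusted p of the 60. Smc2 (ENSMUSG00000028312, GRCm38 chr4:52439243-52488260, plus strand), a core ATPase of condensin, had 323 and 432 normalized counts in FGF13Aoe, against 824 and 1028 in control. The groups lay far apart and the level was 2.46-fold lower in FGF13Aoe (log2 change -1.30 ± 0.20, adjusted p = 0.00667). Smc4, which pairs with SMC2 in every condensin, had 1099 and 1002 normalized counts in FGF13Aoe and 830 and 1136 in control (log2 change 0.11 ± 0.18, adjusted p = 0.646). The Smc4 groups overlapped. Top2a, for the topoisomerase that untangles sister chromatids, had 1550 and 2174 in FGF13Aoe, against 2977 and 4110 in control (log2 change -0.93 ± 0.23, adjusted p = 0.0266). Mki67, for Ki-67, the coat protein of mitotic chromosomes and a common label of dividing cells, was lower in both FGF13Aoe libraries, at 1597 and 2642 normalized counts in FGF13Aoe and 3070 and 4116 in control, but did not pass (log2 change -0.79 ± 0.27, adjusted p = 0.0688).

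Of 4 anaphase genes 3 fell, and 0 of the 4 were called lower without the intensity trend (14.8% of all genes). Espl1, for separase, the protease that cuts cohesin, had 143 and 202 normalized counts in FGF13Aoe, against 312 and 453 in control (log2 change -1.14 ± 0.26, adjusted p = 0.023). Cdc20, the activator of the anaphase-promoting complex that the checkpoint holds, had 361 and 460 in FGF13Aoe, against 607 and 832 in control (log2 change -0.80 ± 0.21, adjusted p = 0.0315). Ube2c, the ubiquitin-conjugating enzyme of that complex, had a log2 change of -0.63 ± 0.18 (adjusted p = 0.0423), with 22.8% of its exonic bases shared with Tnnc2 on the opposite strand. Pttg1, for securin, the inhibitor of separase, had 343 and 298 normalized counts in FGF13Aoe and 276 and 369 in control (log2 change 0.00 ± 0.20, adjusted p = 0.995). The Pttg1 values of FGF13Aoe lay inside the range of the control libraries.

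Of 3 cytokinesis genes 2 fell, beside 19.1% of all genes tested. Without the intensity trend 0 of the 3 were called lower (14.8% of all genes). Ect2, for the exchange factor that activates RhoA at the cell equator, had 209 and 262 normalized counts in FGF13Aoe, against 339 and 469 in control (log2 change -0.77 ± 0.22, adjusted p = 0.0426). Racgap1, for the other subunit of centralspindlin, had 713 and 942 in FGF13Aoe, against 1137 and 1475 in control (log2 change -0.66 ± 0.20, adjusted p = 0.0464). Anln, for anillin, a scaffold of the contractile ring, had 329 and 278 in FGF13Aoe and 370 and 495 in control (log2 change -0.50 ± 0.20, adjusted p = 0.0959). All 3 genes were below control in both FGF13Aoe libraries, as were 37.5% of all genes tested.

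Per kilobase of exon, levels of the 60 genes ranged in FGF13Aoe between 6.39 normalized counts per kb for Cenpk and 220 for Cdc20, and in control between 14.4 for Cenpk and 393 for Top2a. The genes with the highest levels per kb in control were Top2a (207 in FGF13Aoe and 393 in control), Cdc20 (220 and 385), Mki67 (211 and 357) and Tpx2 (171 and 259). Across the 60 genes, FGF13Aoe and control levels per kb ranked alike, with Spearman's rho 0.92, and the control level per kb had a rho of 0.09 with the log2 change. Genes are not independent replicates, all 60 share the same 4 libraries, and these correlations are given without a test.

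**Figure D3:**
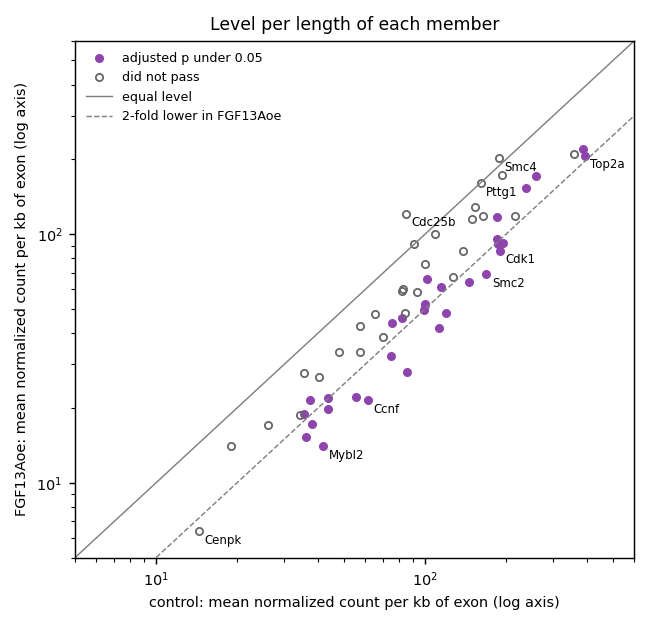
Mean normalized count per kilobase of exon of each of the 60 genes in FGF13Aoe (y axis) against control (x axis), both axes on a log scale, with filled points for an adjusted p under 0.05. Most points lie between the line of equal level and the dashed line of 2-fold lower level, Cdc25b lies above the line of equal level, and Cenpk is the lowest in both groups.

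The replicates of each group also differed over these genes. Replicate 2 exceeded replicate 1 in 55 of the 60 genes in FGF13Aoe, with a median log2 difference of 0.45, and in 60 of 60 in control, with a median of 0.44. Among all genes tested, replicate 2 was above replicate 1 in 51.2% in FGF13Aoe and 53% in control, with medians of 0.01 and 0.02. The 5 FGF13Aoe exceptions were Kif18a, Kif23, Anln, Pttg1 and Smc4. In 46 of the 60 genes the libraries stood in the order FGF13Aoe replicate 1, FGF13Aoe replicate 2, control replicate 1 and control replicate 2, lowest first. The share of all genes tested in that order was not counted, while 37.5% of them had both FGF13Aoe libraries below both controls. Other properties of the libraries stood in the same order: the reads given above, the share of mitochondrial transcripts, at 1.83% and 2.65% in FGF13Aoe and 3.19% and 3.23% in control, and the genes above 0, at 21164 and 21527 in FGF13Aoe and 22785 and 23049 in control. Their part in the differences of the mitotic genes was not tested.

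**Figure D4:**
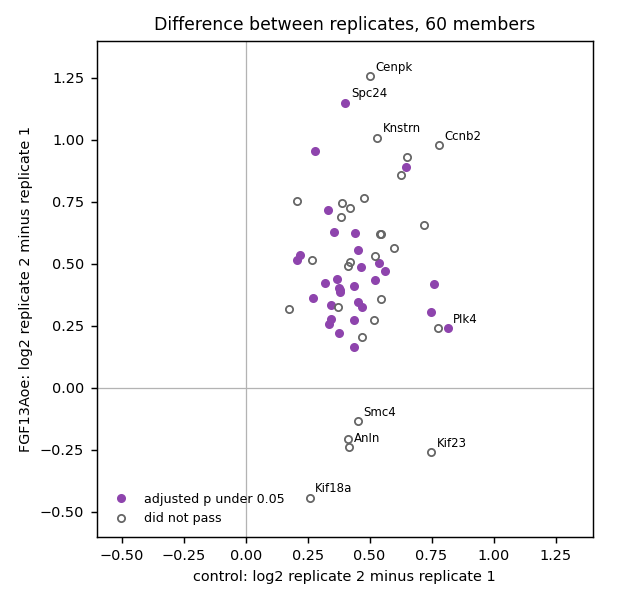
Log2 difference between replicates 2 and 1 within FGF13Aoe (y axis) and within control (x axis) for each of the 60 genes, on log2(normalized count + 1), with filled points for an adjusted p under 0.05. All 60 points lie right of 0 and 55 lie above 0.

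The count of calls moved with the library left out. Without FGF13Aoe replicate 1 limma called 15 of the 60 lower (20.2% of all genes lower) and without FGF13Aoe replicate 2 it called 44 (22.7%). Without control replicate 1 it called 8 (5.7% of all genes lower), which were Cdk1, Smc2, Aurkb, Mybl2, Ccnf, Aurka, Plk4 and Incenp. Without control replicate 2 it called 0 of the 60 lower and 0 higher (6.41% and 5.06% of all genes). The median log2 change of the 60 was -0.55 without FGF13Aoe replicate 1, -1.09 without FGF13Aoe replicate 2, -1.05 without control replicate 1 and -0.58 without control replicate 2, with 55, 57, 59 and 53 genes below 0. Without the intensity trend limma called 12 of the 60 lower (14.8% of all genes), and edgeR on the recovered reads of 3 libraries called 14 lower (7.14%) and 0 higher. In each fit that leaves a library out, the lone library is assumed to vary like the libraries of the other group. With 2 libraries per group, an exact two-sided permutation test of a single gene cannot go below p = 0.333.

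**Figure D5:**
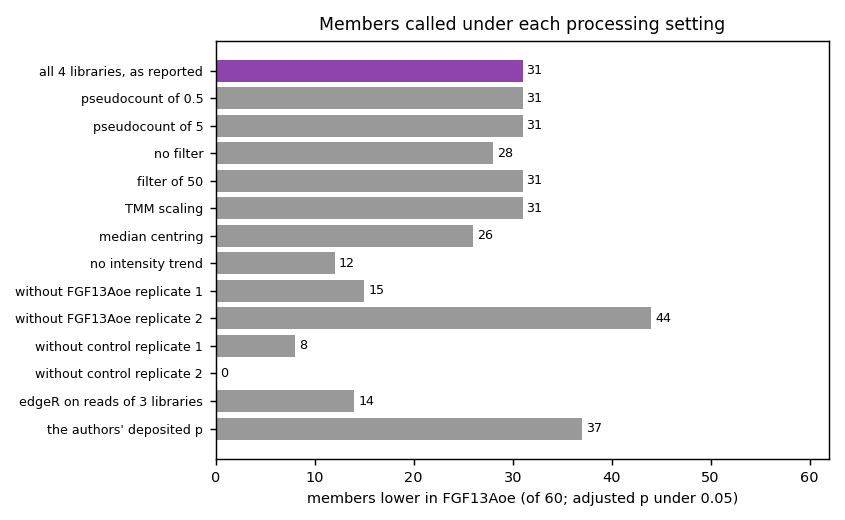
Number of the 60 genes called lower in FGF13Aoe at an adjusted p under 0.05 (x axis, from 0) under each processing setting without a replicate block (y axis). The count was 31 with all 4 libraries, 0 without control replicate 2, 8 without control replicate 1 and 12 without the intensity trend.

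Other genes of mitosis, of S phase and of their regulation, in lists that do not hold the 60, moved unevenly. Their counts stand beside the 19.1% of all genes tested that fell and the 16.2% that rose. Of 24 S phase genes, the set that copies DNA before mitosis, 18 fell and 0 rose, with a median log2 change of -1.39. In 23 of them both FGF13Aoe libraries lay below both controls, beside 37.5% of all genes tested. At an unadjusted p under 0.05, 0 of the 24 were higher in limma, and edgeR on 3 libraries called 14 lower and 0 higher. They included Rrm2, the ribonucleotide reductase subunit (log2 change -2.25, adjusted p = 0.00149), and the helicase subunits Mcm3 (-2.04, adjusted p = 0.00194), Mcm2 (-2.07, adjusted p = 0.00253) and Mcm4 (-1.65, adjusted p = 0.00272). The summed level of the 24 was 5709 and 6935 normalized counts in FGF13Aoe, against 13372 and 17542 in control. Without control replicate 1 or control replicate 2, 13 and 8 of the 24 were called lower.

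Of 13 regulators of mitotic entry 7 fell and 0 rose, with a median log2 change of -0.61. At an unadjusted p under 0.05, 0 were higher in limma, and edgeR on 3 libraries called 2 lower and 0 higher. Gtse1, for a microtubule and p53 regulator of G2, had 207 and 203 normalized counts in FGF13Aoe, against 779 and 977 in control, with a log2 change of -2.08 (adjusted p = 0.00145), and it was called lower also without either control library. Wee1, for the kinase that inhibits CDK1, fell (log2 change -1.03, adjusted p = 0.0102), as did Mastl, for the Greatwall kinase (-1.03, adjusted p = 0.0117), and Cks1b, for a CDK adaptor (-1.28, adjusted p = 0.0128). Genes of this list thus include both activators and inhibitors of CDK1. Without control replicate 1 or control replicate 2, Gtse1 was the 1 gene of the list still called lower, so the other 6 calls were lost.

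Of 34 further centromere, kinetochore and checkpoint genes 7 fell (20.6%, near the 19.1% of all genes) and 0 rose, with a median log2 change of -0.57. In 24 of them both FGF13Aoe libraries lay below both controls, beside 37.5% of all genes tested. At an unadjusted p under 0.05, 1 was higher in limma, and edgeR on 3 libraries called 1 lower and 0 higher. Those with the smallest p were Cenpw (log2 change -1.58, adjusted p = 0.016), Ska3 (-1.01, adjusted p = 0.0188), Nsl1 (-1.42, adjusted p = 0.0256) and Kntc1 (-1.33, adjusted p = 0.0269). Of 29 further spindle and centrosome genes 5 fell (17.2%, also near 19.1%) and 1 rose, with a median of -0.44. Ckap2, for a spindle protein, had a log2 change of -1.07 (adjusted p = 0.00333) and was called lower also without either control library, and the other 4 lower calls were lost in each of these fits. Numa1, for the spindle pole anchor NuMA, rose, at 3892 and 4512 normalized counts in FGF13Aoe, against 2168 and 2206 in control (log2 change 0.94, adjusted p = 0.00522), and was not called without either control library.

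Of the 17 subunits and regulators of the anaphase-promoting complex, 1 fell, Ube2s (log2 change -0.81, adjusted p = 0.0101), and 1 rose, Cdc26 (0.43, adjusted p = 0.0493), with a median log2 change of -0.01. Of the 16 further condensin and cohesin genes, 3 fell, the condensin subunits Ncapg2 (log2 change -1.53, adjusted p = 0.00855), Ncapg (-1.09, adjusted p = 0.023) and Ncaph (-0.75, adjusted p = 0.0366), while the cohesin loader Nipbl (0.56, adjusted p = 0.0136) and the cohesin subunit Smc3 (0.52, adjusted p = 0.0315) rose. Ncapg shares 13.4% of its exonic bases with Lcorl. Of 21 E2F, DREAM, MuvB and NF-Y genes, 5 fell and 2 rose, with a median of -0.21. Tfdp1 (log2 change -0.95, adjusted p = 0.0111) and E2f2 (-1.53, adjusted p = 0.014) fell, while Rbl2, the pocket protein of the repressive DREAM complex, rose (0.57, adjusted p = 0.0194; 21% of its exonic bases overlap another gene) and Tfdp2 rose (0.52, adjusted p = 0.0327). Without control replicate 2, limma called 0 genes lower in each of these 3 lists and in the further kinetochore genes. Without control replicate 1 only Ncapg2 of these lists was called lower. The higher calls, of Cdc26, Nipbl, Smc3, Rbl2 and Tfdp2, were lost both without control replicate 1 and without control replicate 2, and edgeR on 3 libraries called 0 genes of these lists higher.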

How the data were processed

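RNA-seq was made from neurospheres of 2 FGF13Aoe and 2 control samples, with Trizol extraction and NEBNext Ultra libraries, per the labels' protocols. STAR, DESeq2 and the build mm10 are named in the submitters' processing notes, while software versions, annotation release and strand setting are unknown here. The authors deposited, for each gene and library, a normalized read signal (a count divided by the size factor of the library), with their mean, their log2 fold change, their Wald score and their p-values. Every value (100%) was a whole multiple of the library's step (tolerance 1e-06), and dividing by the step gave the read totals of 9724413 to 14092685.

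Of 48178 genes, the 15204 with at least 10 normalized counts in at least 2 of 4 libraries were tested. FGF13Aoe was compared with control in limma 3.58.1 (R 4.3.3), with an intensity trend and no block, on log2(normalized count + 1), two-sided. Adjusted p-values are Benjamini-Hochberg over all genes tested, with a threshold of 0.05. Log2 changes on this scale understate low genes. A chi-square per degree of freedom of 28.6 between the FGF13Aoe replicates and of 11.2 between the control replicates exceeded counting noise, so no library was taken for a second deposit of another, which does not show that replicates came from separate animals. Alternatives were other pseudocounts, filters and scalings, no intensity trend, a replicate block, each library left out, the authors' p, and edgeR 4.0.16 on the recovered counts of 3 libraries. Control replicate 1 was left out there over its step, 0.991, which is close to 1. FGF13Aoe replicate 2, whose step of 1.012 is about as close, was kept, so the step does not set control replicate 1 apart. The median log2 change of the 60 was -1.02 in that fit, against -0.82 in limma on all 4 libraries.

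Exons and gene positions came from GENCODE vM21 (GRCm38) and promoters from RefSeq GRCm38.p6. Described in full were the 2 genes of each role with the smallest p and those that did not pass. Of each other list, up to 4 genes with the smallest p and any called in the opposite direction are named, and a few others were named after their values were seen. The members and lists were chosen with earlier results of these data known.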

Additional observations from a re-analysis of the deposited data

How the results depend on the processing

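The 31 of 60 mitosis and kinetochore genes called lower were 31 under pseudocounts of 0.5 and 5, a filter of 50 normalized counts and TMM scaling, 28 with no filter and 26 after median centring, which moved the median of all genes by 0.07 (10.7% to 20.7% of all genes fell under these settings). They were 12 without the intensity trend, and leaving out each library in turn gave 0 to 44. Over all genes, 2467 rose and 2906 fell. Leaving out each library gave 551 to 2822 higher and 867 to 3447 lower. Under edgeR on the recovered counts of 3 libraries, without control replicate 1 and added after the data were seen, 537 rose and 1086 fell over all genes, and 14 of the 60 fell and 0 rose. The authors' deposited table called 37 of the 60 lower, including all 31, and 0 higher (17.7% of all genes lower and 14.9% higher). No gene of the 60 changed direction past the threshold under these settings.

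Replicate numbers are shared by the groups, but the labels tie them to nothing, and same-numbered libraries had deviations correlated at -0.10. With a replicate block 2049 genes rose and 2647 fell, and 39 of the 60 fell. A crossed pairing, added after the data were seen, gave 2816 higher and 3257 lower, and 40 of the 60. All 60 genes had at least 10 normalized counts in every library, and whether more reads or more libraries would change the calls was not tested.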

Other observations

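Among partners that work in the same complex or step, the ratio between transcripts differed between groups in pairs chosen after their values were seen, with no test. The log2 ratio of Smc2 to Smc4, the core of condensin, was -1.77 and -1.21 in FGF13Aoe, against -0.01 and -0.14 in control. That of Espl1 to Pttg1, separase to its inhibitor securin, was -1.26 and -0.55 in FGF13Aoe, against 0.17 and 0.30 in control. Both ratios were lower in each FGF13Aoe library than in either control. The ratio of Bub1 to Bub1b was -2.09 and -1.86 in FGF13Aoe, against -1.04 and -0.99 in control, and that of Ccnb1 to Ccnb2 was 1.06 and 0.84, against 1.80 and 1.50. Within the passenger complex, the ratio of Aurkb to Incenp was -1.50 and -1.47 in FGF13Aoe, against -1.42 and -1.04 in control, with little distance between the groups. A ratio shows unequal change of the members of a pair and not which of them changed.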
